A study of Drosophila melanogaster with 2 samples.

Results

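The genes described here encode the subunits of the proteasome of Drosophila melanogaster. The rule that chose them reads the symbol and no measured value, although the family was picked with earlier results of these data known. It takes every protein-coding gene of the Ensembl BDGP6.54 annotation whose name begins with Prosalpha, Prosbeta, Rpt or Rpn followed by a number. The rule found 48 of the 13968 coding genes on the nuclear chromosomes. Of these, 32 carry the plain subunit name and are called general subunits, and 16 carry an added R, T, R1, R2, T1 or T2 and are called paralogs.

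The binding data came from chromatin immunoprecipitation and sequencing (ChIP-seq) with an eGFP-tagged Unc-4 protein. Unc-4 is a transcription factor of the homeodomain class with known roles in neurons, and the fusion was pulled down with an anti-GFP antibody. Chromatin was taken from whole embryos of the transgenic strain unc-4-GFP aged 6 to 18 h, and sonicated to fragments of 200 to 800 bp. The 2 biological replicates form 1 group, so nothing separates a treated from an untreated state, and possible controls named in the labels were not analysed here. Whole embryos mix all cell types, so a peak cannot be placed in any one of them.

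The proteasome degrades proteins that carry ubiquitin chains. Its barrel-shaped core is built from rings of alpha subunits, which gate the entrance, and rings of beta subunits, of which beta1, beta2 and beta5 cut the substrate. The regulatory particle on either end has a base, with a ring of Rpt ATPases that unfold and push the substrate in, and a lid that removes the ubiquitin. In flies many subunits have a second gene copy, and those marked T are known from the testis.

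Peak lists, not reads, were analysed. The read depth is unknown, and the authors' signal value of a peak can be compared only within a list. The pooled list of both replicates held 4899 nuclear peaks with a median signal of 107 and a highest signal of 1598. Replicate 1 alone held 3457 nuclear peaks with a median of 116, and replicate 2 held 2960 with a median of 63.4. A gene was counted as holding a summit when the highest point of a pooled peak lay within 1 kb of any of its annotated transcript starts. With 1 group of 2 libraries and no read counts, no test between groups of genes was made. Shares are given with 95% Wilson intervals, which cover counting error only and treat genes as independent.

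General subunit genes carried Unc-4-eGFP peaks at their starts and their paralogs mostly did not. A summit lay within 1 kb of a start in 29 of the 48 members (60.4%, interval 46.3 to 73.0), whereas 35.9% of all coding genes held one. Among the general subunits it was 27 of 32 (84.4%, 68.2 to 93.1). Among the paralogs it was 2 of 16 (12.5%, 3.50 to 36.0). The intervals of the classes did not overlap. That of the paralogs reached the share of all coding genes while that of the general subunits lay above it. The same division held in each replicate alone. Replicate 1 had summits at 24 general subunits and 2 paralogs (29.2% of all coding genes), and replicate 2 at 21 and 2 (25.5%). The conservative pooled list had them at 25 and 2 (33.7%).

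A similar division was seen in the ranked lists, of which the pooled one includes the thresholded pooled peaks. The ranked lists also hold weaker candidate peaks below the threshold, and in the pooled ranked list 66.3% of coding genes had a summit within 1 kb. There, 30 of 32 general subunits had one, against 4 of 16 paralogs (interval 10.2 to 49.5%). All 4899 thresholded pooled peaks are in that list, so most of the genes counted are the same as before. It added only Prosalpha2, Rpn7 and Rpn8 among general subunits, and Rpt6R and Prosalpha4T2 among paralogs. In the ranked list of replicate 1 the counts were 30 and 2 (59.3% of coding genes), and in that of replicate 2 they were 31 and 6 (71.2%). In these 3 ranked lists the upper bound for the paralogs (49.5, 36.0 and 61.4%) lay below the share of all coding genes.

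**Figure D1:**
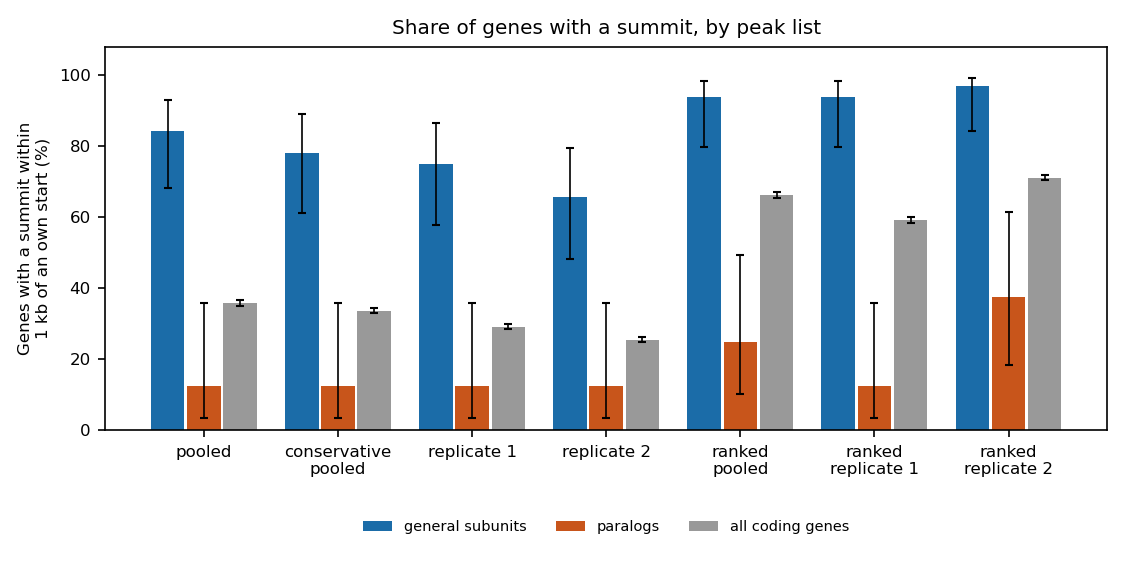
Percentage of genes with a summit within 1 kb of an own start in each peak list, for the 32 general subunits, the 16 paralogs and all coding genes; bars start at 0 and error bars are 95% Wilson intervals. General subunits are at 84.4% and paralogs at 12.5% in the pooled list, and the bar of the general subunits is the tallest in every list.

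The peaks at members were of a strength usual for gene starts, apart from a few very high ones. The highest signal per gene had a median of 192 over the 29 members with a summit, against 177 over the 5015 coding genes with one. It was at or above the median nuclear peak in 22 of the 29 members (75.9%), and in 68.2% of those coding genes. The range among members was wide, from 71.0 at Prosbeta3 to 1506 at Rpn6.

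**Figure D2:**
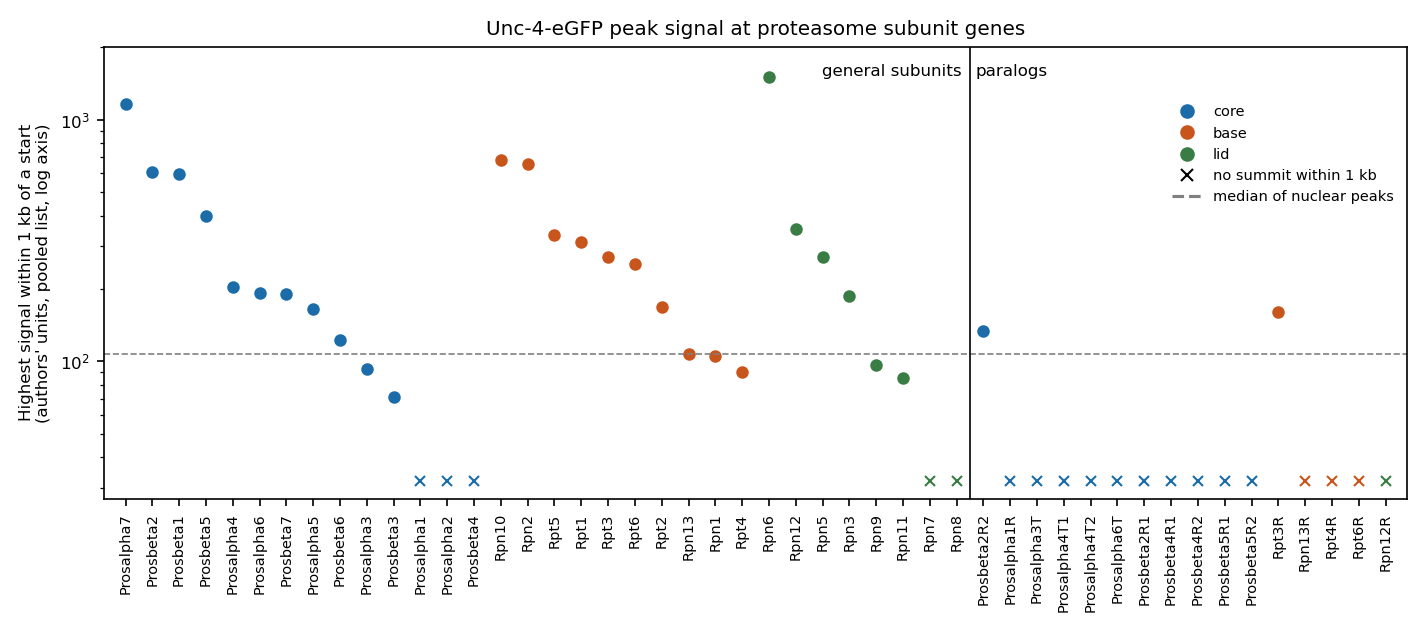
Highest pooled signal (authors' units, log axis) within 1 kb of a start for each of the 48 members, ordered within core, base and lid; crosses mark members with no summit, and the dashed line is the median nuclear peak at 107. Signals run from 71.0 to 1506 among the general subunits, and all but 2 of the 16 paralogs are crosses.

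In the core, 11 of 14 general subunits held a summit (78.6%, 52.4 to 92.4), with a median signal of 192. The strongest was at Prosalpha7, which encodes a subunit of the gating alpha ring. Its pooled signal was 1158, with 811 in replicate 1 and 336 in replicate 2, which ranked it 11 among the nuclear peaks of the pooled list. The peak spans chr2R:9847677-9848145, with its summit 44 bp upstream of the start. The other alpha genes with a summit were far weaker: Prosalpha4 had 203, Prosalpha6 192, Prosalpha5 164 and Prosalpha3 93.3. All 4 were also in both replicates, from 63.1 to 145 in replicate 1 and from 44.8 to 62.7 in replicate 2.

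Among the beta ring genes the 3 catalytic subunits had the highest signals. Prosbeta2, the trypsin-like subunit, had a pooled signal of 605, with 458 in replicate 1 and 128 in replicate 2. Prosbeta1, the caspase-like subunit, had 598, with 425 and 162. Its summit lay at -101 bp from its own start and 20 bp from that of Rrp42, so that peak is nearer the neighbour. Prosbeta5, the chymotrypsin-like subunit, had 399, with 293 and 111. The non-catalytic Prosbeta7 had 189, Prosbeta6 123 and Prosbeta3 71.0, all below the catalytic genes. This order was noted after the values were seen, rests on 6 genes and was not tested. Prosbeta6 passed the threshold in replicate 1 alone (97.8), and Prosbeta3 in neither replicate.

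Every general subunit gene of the base held a summit. This was true of all 10 (72.2 to 100%), comprising the 6 ATPase genes and 4 non-ATPase genes, and their median signal was 261. The highest were at Rpn10, which encodes a ubiquitin receptor, and Rpn2, which encodes the large scaffold of the base. Rpn10 had a pooled signal of 680, with 476 in replicate 1 and 200 in replicate 2, in a peak at chr3L:21536816-21537196. Rpn2 had 657, with 492 and 161, in a peak at chr3R:29153203-29153646. The ATPase genes were more even: Rpt5 had 332, Rpt1 312, Rpt3 271, Rpt6 252, Rpt2 168 and Rpt4 90.3, each with a summit in both replicates. The remaining scaffold gene Rpn1 (105) passed the threshold in replicate 1 alone, and the ubiquitin receptor gene Rpn13 (107) in replicate 2 alone. Rpn13 and the lid gene Rpn11 were the members with a pooled summit that had none in the conservative list.

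The lid had both the strongest and some of the least certain peaks, with 6 of 8 general subunits (75.0%, 40.9 to 92.9) and a median signal of 229. Rpn6, a scaffold subunit that clamps the lid onto the core, had a pooled signal of 1506, and 1027 and 470 in replicates 1 and 2. This ranked it 2 among nuclear peaks, and its 470 was the highest nuclear signal in replicate 2. Rpn12, needed for lid assembly, had 354, with 254 and 97.1 in the replicates, and Rpn3 had 186, with 142 and 44.5. The other 3 were not in both replicates. Rpn5 (271) and Rpn11 (85.5), which encodes the deubiquitinase of the lid, were in replicate 1 alone, and Rpn9 (96.9) was in neither. Replicate 2 alone therefore gave only 3 lid genes, Rpn6, Rpn12 and Rpn3.

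The core, base and lid did not separate by these counts. Their general subunits held a summit in 11 of 14, 10 of 10 and 6 of 8 cases, the Wilson intervals overlapped, and the ranges of signal did as well.

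**Figure D3:**
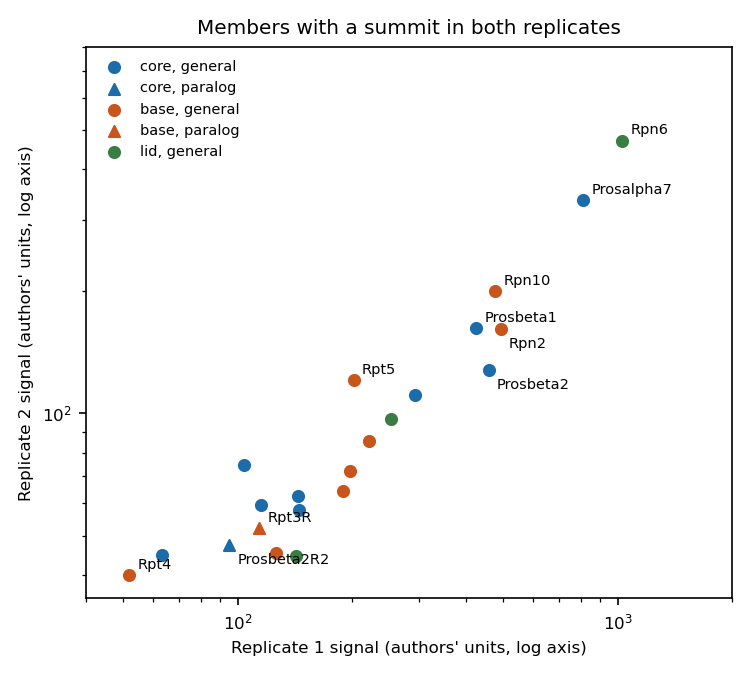
Signal of the strongest summit within 1 kb in replicate 1 against replicate 2 (authors' units, both axes log) for the 22 members with a summit in both; colour gives the subcomplex and triangles mark the paralogs. Rpn6 and Prosalpha7 are highest in both lists, and the paralogs Rpt3R and Prosbeta2R2 lie near the lower end.

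Members kept much the same order in both libraries. For the 22 members with a summit within 1 kb in both replicate lists, the signals had a Spearman coefficient of 0.914 across genes. This is a description of genes within a shared experiment. Signal was higher in replicate 1 for all of them, by 1.29 to 3.58 times with a median of 2.46, and the lists are on separate scales. The strongest summits of the replicates lay between 0 and 173 bp apart with a median gap of 21.0 bp, and 17 of the 22 were within 50 bp. Of the 29 pooled peaks, 22 overlapped a thresholded peak of both replicates by at least 1 bp, and 17 did with 50% reciprocal overlap. The same figures over other peaks were not computed, so these counts describe the members alone.

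Of the general subunits, 5 held no summit within 1 kb, and they differ in what the lists show there. Prosalpha2 came closest. Its candidate peak in the ranked pooled list had a signal of 59.4 and a -log10 of the global irreproducible discovery rate (IDR) of 1.96, while the lowest value among thresholded peaks was 2.00. At Rpn7 and Rpn8, which encode further lid subunits, candidate peaks were weak (29.7 and 35.4, with -log10 IDR of 0.172 and 0.215). These were also the general subunits without a summit in the wider window of the gene plus 5 kb. Prosbeta4, a structural beta subunit, had a candidate within 1 kb in the ranked list of replicate 2 alone, with a signal of 8.75.

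The fifth, Prosalpha1, had no candidate peak within 1 kb in any ranked list. The gene lies beside its paralog Prosalpha1R, with 3093 bp between the starts, and the genome assembly holds the same sequence at both. An exact match of 3112 bp covers all of Prosalpha1, 1172 bp before its start and 564 bp after its end. In the promoter windows of both genes 0% of 50-base stretches were unique in the assembly. How reads with more than 1 possible place were treated is not given in the sources used here, so the lack of a peak at this pair was not taken as a lack of binding. Without the pair the counts are 27 of 31 general subunits and 2 of 15 paralogs. All such stretches were unique in 45 of the 48 members' promoter windows, and in 73.8% of those of Rpn3.

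The wider window added neighbours' peaks rather than members' own. With the gene body and 5 kb on each side counted, 32 of 48 members held a summit (66.7%, 52.5 to 78.3). The share of all coding genes, 57.1%, lies within that interval. Replicate 1 alone gave 31 members (49.5% of coding genes) and replicate 2 gave 30 (46.1%). The 3 members gained were Prosalpha1, Prosalpha2 and Prosbeta4, whose strongest summits in the window were closest to the starts of phr, Srlp and VhaSFD, 3439, 2664 and 4312 bp from their own. The paralogs did not gain in the pooled list, with 2 of 16. In the conservative list, where 33 members held a summit (54.8% of coding genes), and in replicate 2, Prosalpha1R also held one (signals of 84.3 and 23.0).

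Both paralogs with a peak had the start of another gene within 1 kb, as did 73.0% of coding genes with a summit. Rpt3R, a copy of the ATPase gene Rpt3, had a pooled signal of 160, with 114 in replicate 1 and 52.1 in replicate 2. One of its starts lies 19 bp from that of Alg12 on the opposite strand, and its second summit (119) was closest to Alg12. Prosbeta2R2, a copy of the catalytic Prosbeta2, had 134, with 94.9 and 47.4. Its summit lay 95 bp upstream of its own start and 34 bp from that of CG1116, so the peak is nearer the neighbour. The namesake Prosbeta2 was higher in the pooled list (605). The namesake Rpt3 had 271 at a summit closest to CG11122, and 161 at the strongest one closest to its own start, beside the 160 of Rpt3R.

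The 14 paralogs without a summit within 1 kb were Prosalpha1R, Prosalpha3T, Prosalpha4T1, Prosalpha4T2, Prosalpha6T, Prosbeta2R1, Prosbeta4R1, Prosbeta4R2, Prosbeta5R1, Prosbeta5R2, Rpn12R, Rpn13R, Rpt4R and Rpt6R. All 4 genes marked T were among them. None of the 14 had a candidate within 1 kb in the ranked list of replicate 1, where 59.3% of coding genes had one. In the ranked list of replicate 2 the candidates within 1 kb were Rpt6R (17.9), Prosbeta5R1 (8.46), Prosbeta2R1 (8.28) and Prosalpha4T1 (4.98). The highest candidate within 1 kb in the ranked pooled list was 18.6 at Rpt6R, whose namesake Rpt6 had 252. Prosalpha4T2 had 10.1, and the other 12 had none within 1 kb there.

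Paralogs also differed from general subunits in features that go with peaks across the genome. The start of another gene lay within 1 kb of a start in 23 of 32 general subunits and 4 of 16 paralogs, against 51.4% of all coding genes. Coding genes without such a neighbour held a summit in 19.9% of cases. Among members without one, it was 8 of 9 general subunits and 0 of 12 paralogs. Single-exon genes numbered 4 among the 32 general subunits, of which 3 held a summit, and 6 among the 16 paralogs, of which 0 did. Of the 13968 coding genes, 2131 have a single exon. A summit was found in 18.3% of these and in 39.1% of the other coding genes. The part of neighbours and exon number in the division was not tested.

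Summits sat just upstream of the start. The strongest was upstream in 25 of the 29 members, against 82.1% of coding genes with a summit, and the median position was -68.0 bp, against -69.0 bp. In this the members were like other genes. It lay within 100 bp in 24 (82.8%), against 55.7%. Rpt2 (46 bp), Rpn10 (28 bp), Rpn3 (11 bp) and Rpt1 (9 bp) had theirs downstream. The furthest were at Rpn11 (-370 bp), Rpn5 (-331 bp), Rpt3 (-302 bp) and Rpn13 (-221 bp). The second and weaker summit of Rpn5 (133) lay at -132 bp, also closest to Hat1, and those of Rpt3 (161 and 45.5) at -96 and -26 bp.

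**Figure D4:**
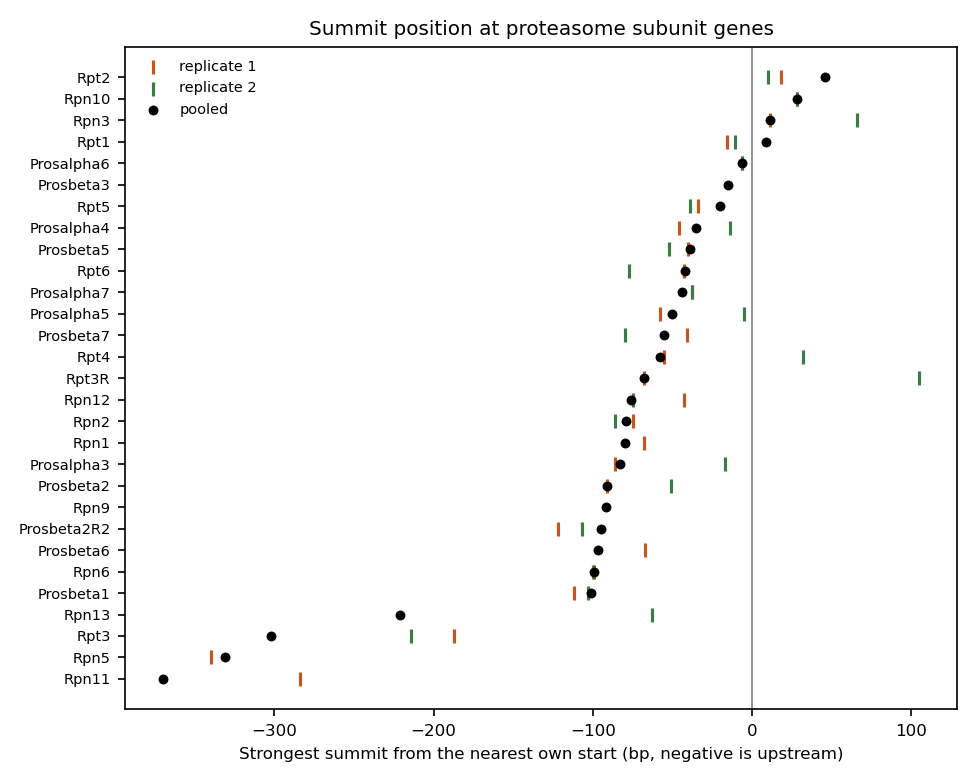
Position of the strongest summit relative to the nearest own start (bp, negative is upstream) at the 29 members with a pooled summit; dots are the pooled list and ticks the replicates where they had one. Apart from 4 dots, the positions lie between -101 and 46 bp, and Rpn13, Rpt3, Rpn5 and Rpn11 lie further upstream.

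Many of these starts lie near that of another annotated gene. Another start lay within 1 kb in 21 of the 29 members with a summit (72.4%, against 73.0% of coding genes with a summit), so this was about as common as elsewhere. At Rpt6 the other start is that of a transposable element, INE-1. The strongest summit was closest to the member's own start in 23 of the 29 (79.3%, against 65.9%). Over all coding genes, with or without a summit, 23.7% had such a summit. In the other 6 it was closest to Rrp42 at Prosbeta1, CtsL1 at Rpn13, Hat1 at Rpn5, CG11122 at Rpt3, mldr at Rpt4 and CG1116 at Prosbeta2R2. At Rpt4 the summit fell on the start of mldr itself. The peaks cannot say which gene of such a pair they belong to.

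The promoters of general subunits often held TATCGA, the core of the DNA replication-related element TATCGATA, which in flies is known to be bound by DREF and BEAF-32. In a window from 250 bases before to 50 bases after the gene's 5′ end it was found on either strand in 20 of 32 general subunits (62.5%) and 4 of 16 paralogs. The share was 27.7% of all coding genes and 52.3% of those with a summit. The full TATCGATA, which always holds TATCGA and is its own reverse complement, was in 12 general subunits (37.5%) and 0 paralogs, against 9.36% of coding genes and 22.6% of those with a summit. Around the strongest summit, TATCGA lay within 50 bp in 17 of the 29 members (58.6%), against 42.4% of coding genes with a summit and 32.1% of all nuclear summits. TATCGATA did in 9, against 18.6% of those coding genes. Of the 9, 1 is the paralog Rpt3R, whose match lies by a summit outside the window at the gene's 5′ end. The centre of the nearest TATCGA was between -36 and 34 bp from the summit, with a median distance of 22.0 bp. Only matches within 50 bp were searched, so these distances cannot show whether the motif centres on the summit.

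Sequences are shown for members whose summit window touches no annotated exon, to let the match be compared between strong, weak and duplicated genes. Each runs from 50 bases before to 50 bases after the strongest pooled summit, from the RefSeq Release 6 assembly and on the gene's strand, with every TATCGA or its reverse complement in capitals. Rpn2 (chr3R:29153395-29153495, plus strand, signal 657) and Rpn12 (chr3L:16582902-16583002, plus, 354) are stronger peaks with 1 match each. Rpn1 (chr3L:19914921-19915021, plus, 105) is a weaker one. Rpn11 (chr2L:5060110-5060210, minus, 85.5) is weaker still and holds the full element at 2 places. Rpt3 (chrX:11124749-11124849, plus, 271) and its copy Rpt3R (chr3R:9756232-9756332, minus, 160) hold it once each. Prosbeta2 (chr3L:14999810-14999910, plus, 605) has a strong peak and no match in these bases, although its promoter window holds the full element elsewhere.
Rpn2: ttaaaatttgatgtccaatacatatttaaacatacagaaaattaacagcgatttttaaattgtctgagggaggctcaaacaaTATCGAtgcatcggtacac
Rpn12: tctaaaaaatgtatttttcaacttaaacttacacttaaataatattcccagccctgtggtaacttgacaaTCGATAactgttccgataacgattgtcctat
Rpn1: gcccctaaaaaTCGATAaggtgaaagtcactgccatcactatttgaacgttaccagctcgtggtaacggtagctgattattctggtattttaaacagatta
Rpn11: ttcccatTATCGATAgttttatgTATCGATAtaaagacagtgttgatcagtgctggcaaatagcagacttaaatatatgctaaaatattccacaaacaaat
Rpt3: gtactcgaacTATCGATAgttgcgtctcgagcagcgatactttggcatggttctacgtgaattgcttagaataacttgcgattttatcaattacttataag
Rpt3R: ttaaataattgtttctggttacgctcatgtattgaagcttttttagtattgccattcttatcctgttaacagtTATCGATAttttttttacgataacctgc
Prosbeta2: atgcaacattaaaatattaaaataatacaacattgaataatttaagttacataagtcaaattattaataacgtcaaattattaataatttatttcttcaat

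A match did not go with a peak in every member, and how it went with signal turned with the window searched. Of the 27 general subunits with a summit, 8 had no TATCGA in the promoter window, and their median signal was 237, against 192 in the 19 with one. The 8 include Rpn6, whose match lies by its summit and outside that window. Split by a match within 50 bp of the summit, the median was 271 in the 15 with one and 188 in the 12 without. Neither window held a match at Rpn10 (680), Prosbeta5 (399), Rpn5 (271), Prosalpha4 (203), Prosbeta7 (189), Rpt4 (90.3) and Prosbeta3 (71.0). Rpn7 holds TATCGATA in its promoter window and had no thresholded peak. The paralogs Rpn12R and Rpt4R each hold 1 match in the 150 bases before the start and had no candidate peak within 1 kb in any ranked list. They are shown on the gene's strand at chr3L:15042571-15042720 (minus) and chr3L:11941762-11941911 (plus), for comparison with Rpn12 above.
Rpn12R: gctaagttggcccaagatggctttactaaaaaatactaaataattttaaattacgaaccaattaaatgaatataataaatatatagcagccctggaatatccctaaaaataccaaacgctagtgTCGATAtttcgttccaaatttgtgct
Rpt4R: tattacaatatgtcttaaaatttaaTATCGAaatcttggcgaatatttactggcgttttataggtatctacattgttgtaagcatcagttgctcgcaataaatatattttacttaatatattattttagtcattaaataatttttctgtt

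Each other motif searched on either strand was found in fewer general subunits than TATCGA was. TAATTA, a core shared by many homeodomain binding sites, was in the promoter window of 3 general subunits (9.38%) and 2 paralogs, against 20.5% of all coding genes, and within 50 bp of the strongest summit in 0 of the 29 members, against 6.94% of coding genes with a summit. GGTCACAC, part of a core promoter motif bound by M1BP in flies, was in 5 general subunits (15.6%) and 0 paralogs, against 7.70% of all coding genes. TGACNNNGC, the antioxidant response element through which cnc acts on proteasome genes in flies, was in 5 general subunits (15.6%) and 1 paralog, against 8.63%. GAGAGA and CACGTG were in 0 general subunits, against 12.3% and 4.23%, and in 3 and 1 paralogs. TATAAA, found in many TATA promoters, was in 13 general subunits (40.6%) and 5 paralogs, against 45.9%. The promoter-window share among coding genes with a summit was computed for TATCGA and TATCGATA only.

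Genes that work with the proteasome also held peaks. Of 22 listed genes for assembly factors, regulators, ubiquitin supply and substrate delivery, 20 were matched by symbol, and 16 of these had a pooled summit within 1 kb (80.0%, 58.4 to 91.9), with a median signal of 254. Over all coding genes the share was 35.9% and the median 177. Of the 16, Usp14 (59.5), Uch-L5 (56.5) and Pngl (59.7) had no summit in either replicate. The highest were at rngo, a ubiquitin receptor of the shuttle kind (864, with 678 in replicate 1 and 174 in replicate 2), TER94, the segregase that extracts ubiquitinated proteins (629, 425 and 204), its cofactor gene Npl4 (512, 309 and 198) and the shuttle gene Ubqn (457, 347 and 121). The Ubqn summit was closest to the start of dome, that of REG (294) to sno, that of Usp14 to CG4972 and that of Uch-L5 to Jarid2. Sem1, a small lid subunit whose symbol the rule does not cover, had none, nor did maf-S, Ubi-p63E and Rad23. The transcription factor gene cnc had 4 summits, the strongest at 122, and its inhibitor gene Keap1 had 396 at a summit closest to kuk.

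Beside these, all 8 genes of the CCT chaperonin, another ring-shaped complex, held a summit (67.6 to 100%), with a median signal of 202. The V-ATPase genes, which also include copies with restricted use, held one in 14 of 33 (42.4%, 27.2 to 59.2), with a median of 128. The 35.9% of all coding genes lies within the V-ATPase interval and below that of the CCT genes. These complexes were set beside the proteasome as a description, and no difference between them was tested.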

How the data were processed

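ChIP-seq peak lists of 2 replicates of Unc-4-eGFP embryos were used: 4 thresholded lists (both replicates pooled, conservative pooled, and 1 per replicate) and 3 ranked lists. Per the deposited text descriptions they are on assembly dm6 and were ranked or filtered by the irreproducible discovery rate (IDR). The sources used here do not name an aligner or peak caller. Deposited with each peak are a signal on a scale of the authors that no source explains and the summit offset in bp. The deposited ranked lists also give the -log10 of the global IDR.

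Computed here with Python 3.11.15, pandas 2.3.3 and scipy 1.17.1: summits were assigned to coding genes of Ensembl release 115 (BDGP6.54), within 1 kb of any own transcript start or in the gene plus 5 kb. Positions count from 1. All 48 members have the same coordinates in RefSeq. Motifs were searched on both strands in 301 bp promoter windows and within 50 bp of summits of the RefSeq Release 6 sequence. Assignment and search were tested on simulated data. Read depth is unknown. Members, gene lists and motifs were chosen with earlier results of these data known. All members are accounted for. Lists of RefSeq promoters or proteins were not used here.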

Additional observations from a re-analysis of the deposited data

How the results depend on the processing

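Over 10 results and 66 alternatives, 62 counts or medians stayed within 1.5 times the reported value. With each summit given to the gene of its nearest start, paralogs with a summit fell from 2 to 1. Between single replicates the count of lid members was 3 to 5 of 9 (6 pooled). Without a flank, 11 members held a summit in the gene, against 32 with 5 kb. The full TATCGATA was in 12 promoter windows, against 24 for TATCGA. Leaving out 1 replicate gave 23 to 26 members within 1 kb of a start, 21 to 24 general subunits, 2 paralogs, 10 to 11 core and 10 base members, and 30 to 31 in the wider window. Leaving out the duplicated pair Prosalpha1 and Prosalpha1R was chosen after seeing the data. No paired analysis was possible because there is 1 group. Unknown depth limits what the lack of a peak can show.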
